A study of Mus musculus with 24 samples.

Results

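The barcodes described here are those that break the base pattern of the barcode library. Each barcode has 52 bases, and most alternate strictly, with G or C at odd positions and A or T at even positions, counted from 1 at the first base of the deposited sequence. Off-pattern barcodes have at least 1 base of the wrong class, and they were kept if they held at least 0.1% of the reads of at least 1 sample. This gave 100 off-pattern barcodes among 1037 barcodes at that cut, against 937 on-pattern barcodes, and among 327974 distinct sequences in all. The members were thus chosen by their bases and by their highest share of reads, and both are given below as descriptions, with no test.

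The study followed clones of blood stem cells in mice of the C57BL/6J strain. Haematopoietic stem cells (HSCs) from bone marrow were infected with the barcoding lentivirus pBC008 on day 5 of culture. GFP+LSK cells, a fraction rich in stem and early progenitor cells, were sorted 4 days later and injected with CD45.2+ rescue cells into CD45.2 male recipients aged 5 weeks that had received 9 Gy to the whole body. After 2 months, 8 populations were sorted from each of 3 mice, which gave 24 samples with 3 per population: monocytes, neutrophils, B cells and T cells of the blood, Ccr2hi and Ccr2lo macrophages of the heart, and M1 and M2 macrophages of the kidney. All groups share these treatments, and no sample of uninfected cells or of the virus library was analysed here. The reads hold no marker of cell identity, so the population names rest on the labels. Cells without a barcode give no reads, and reads count barcode copies after PCR, so no share here is one of cells.

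A lentiviral barcode is a stretch of random bases that the virus inserts into the genome of the cell it infects. All progeny of that cell inherit it, so sequencing shows which founders contributed to a population. A fixed alternation of base classes is a common design for such libraries, because it avoids runs of one base and lets many copying errors be recognised. An error that stays within the class, G for C or A for T, cannot be seen in this way.

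Samples held 6808221 to 15745444 reads. A share of 0.1% corresponded to 6809 to 15746 reads and the share of 0.01% that counted as present to 681 to 1575 reads. In the sample with fewest reads, 0 reads of a sequence leave room for 3, or 4.41e-05%. PCR reads without molecular identifiers are not independent molecules, so these limits and the intervals below cover counting error only. Populations of the same mouse shared 0.410 of their reads on average and populations of different mice 0.0136, each over barcodes by the smaller of both shares.

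The 5 off-pattern barcodes with the highest mean share in each mouse are printed here because they are the largest off-pattern clones and the ones described by population further on. The base off the pattern is in capitals and all other bases are in lower case. All but 1 of the capitals are T at an odd position, and barcode c of mouse 3 has G at an even one.
Mouse 1, barcode a: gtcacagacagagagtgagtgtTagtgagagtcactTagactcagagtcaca
Mouse 1, barcode b: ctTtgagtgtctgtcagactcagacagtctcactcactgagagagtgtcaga
Mouse 1, barcode c: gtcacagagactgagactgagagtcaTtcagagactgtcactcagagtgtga
Mouse 1, barcode d: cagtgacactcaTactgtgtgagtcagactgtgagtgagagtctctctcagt
Mouse 1, barcode e: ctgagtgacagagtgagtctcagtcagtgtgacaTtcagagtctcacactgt
Mouse 2, barcode a: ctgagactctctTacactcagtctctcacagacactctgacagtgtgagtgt
Mouse 2, barcode b: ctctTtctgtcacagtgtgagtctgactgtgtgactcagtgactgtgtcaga
Mouse 2, barcode c: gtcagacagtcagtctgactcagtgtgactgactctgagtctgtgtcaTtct
Mouse 2, barcode d: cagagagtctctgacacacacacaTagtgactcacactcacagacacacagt
Mouse 2, barcode e: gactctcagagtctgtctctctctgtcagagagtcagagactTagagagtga
Mouse 3, barcode a: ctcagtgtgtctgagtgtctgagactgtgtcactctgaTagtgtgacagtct
Mouse 3, barcode b: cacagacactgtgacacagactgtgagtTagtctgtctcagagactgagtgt
Mouse 3, barcode c: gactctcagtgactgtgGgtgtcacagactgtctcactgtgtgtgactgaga
Mouse 3, barcode d: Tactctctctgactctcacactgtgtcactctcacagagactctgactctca
Mouse 3, barcode e: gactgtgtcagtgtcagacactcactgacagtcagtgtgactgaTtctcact

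The deviation was nearly always a single T in place of G or C. Of the 100 off-pattern barcodes, 95 had 1 base of the wrong class and 5 had 2 separate ones. A shift of the pattern, such as a lost or added base would give, was seen in 0. All sequences analysed have the same length, and whether the authors filtered on length is not known. Barcodes with a lost or added base could thus have been left out, so the 0 does not show that they were absent. The 95 single bases were T at an odd position in 86 barcodes, A at an odd position in 6, G at an even position in 2 and C at an even position in 1. Of the 5 barcodes with 2 such bases, 4 had T at both and 1 had C at an even and T at an odd position. Of all 105 wrong-class bases, 90.5% were therefore T and 5.71% were A, and 4 stood at even positions.

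The 2 most abundant barcodes with 2 wrong-class bases are barcode a of mouse 1, printed above, and 1 of mouse 2, shown next as another example of bases that lie apart.
Mouse 2, barcode f: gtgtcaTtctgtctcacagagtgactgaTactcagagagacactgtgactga

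The T was spread over the whole barcode. Each of the 26 odd positions carried it in at least 1 off-pattern barcode, with a median of 3 and at most 8. The first 13 positions, 7 of them odd, held 29 of the 95 T, positions 14 to 26, with 6 odd ones, held 19, and the next 13 and the last 13 held 21 and 26. The bases beside it were also mixed. Of 88 T with a neighbour on either side, 22 lay between A and A, 21 between A and T, 26 between T and A and 19 between T and T, read from left to right. Around G or C at odd positions of the on-pattern barcodes these shares were 21.6%, 24.6%, 24.6% and 29.2%, against 25%, 23.9%, 29.5% and 21.6% around the T. A wrong-class base beside the same base makes a run, and 52 off-pattern barcodes had a longest run of 2 and 20 a run of 3, mostly of T, whereas a barcode on the pattern can have none. They otherwise resembled the on-pattern barcodes in composition: at odd positions 52.1% of bases were G and 44.0% C, against 55.0% and 45.0%, and at even positions 46.2% were A in both.

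The off-pattern barcodes just inside and just outside the cut are shown next, because they show that it does not fall at a gap in size or in kind. Those inside held 0.1002% of the reads of Ccr2lo macrophages and 0.1006% of those of renal M2 macrophages, both in mouse 1. Those outside held 0.0997% of the reads of Ccr2hi macrophages in mouse 1 and 0.0985% of those of Ccr2lo macrophages in mouse 2.
Mouse 1, inside, Ccr2lo: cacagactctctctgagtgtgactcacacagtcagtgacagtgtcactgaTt
Mouse 1, inside, renal M2: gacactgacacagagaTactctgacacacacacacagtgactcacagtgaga
Mouse 1, outside, Ccr2hi: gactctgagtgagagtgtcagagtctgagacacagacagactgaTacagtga
Mouse 2, outside, Ccr2lo: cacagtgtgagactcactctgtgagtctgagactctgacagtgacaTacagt

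Below the cut the same kind of off-pattern barcode continued at the same frequency down to about 0.01% of reads. Off-pattern barcodes made up 15 of 154 barcodes that reached 1% or more (9.74%, Wilson 95% interval 5.99% to 15.4%) and 85 of 883 from 0.1% to 1% (9.63%, 7.85% to 11.8%). From 0.01% to 0.1%, a range that the choice of members did not use, they were 317 of 3307 (9.59%, 8.63% to 10.6%). In that range 90.1% of 335 wrong-class bases were T, close to the 90.5% of the members, and each odd position carried 8 to 17 of them. Position 3 and position 9, with 1 T each among the members, had 15 and 11 there.

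At lower shares the off-pattern sequences were of another kind. They made up 31.0% of 2920 sequences from 0.001% to 0.01% of reads, 74.6% of 10379 sequences from 0.0001% to 0.001% and 55.3% of the 310331 sequences below that. Among those with 1 wrong-class base, T at an odd position accounted for 25.2%, 14.7% and 23.9% in these ranges, and G or C at an even position for 69.9%, 68.6% and 54.0%. Of the off-pattern sequences, 74.5%, 98.8% and 94.0% differed by 1 base from a sequence with at least 10 times their reads in the sample where they were highest. Of the on-pattern sequences in these ranges 2.38%, 73.7% and 45.1% did, so such neighbours were also frequent among rare on-pattern sequences. Among the 100 members this was true of 0, and from 0.01% to 0.1% of 2 in 317 (0.631%). For on-pattern barcodes it was likewise 0 at the cut, and 0.0669% from 0.01% to 0.1%. In the range from 0.001% to 0.01%, 221 sequences with 1 wrong-class base had no such neighbour, and 192 of them, 86.9%, had T at an odd position. In the ranges below it this was so for 55 of 83 (66.3%) and 5332 of 7406 (72.0%).

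The members were as far from other barcodes as on-pattern barcodes were from each other. The nearest on-pattern barcode at the cut was 12 to 17 mismatches away (median 15), and for the 937 on-pattern barcodes it was 10 to 17 away (median 15). Counting lost and added bases as well, the nearest was 11 to 16 edits away (median 14) for members and 10 to 16 (median 14) for on-pattern barcodes. For 76 members the sample where they were highest also held barcodes with at least 10 times their reads, and the nearest of those was 16 to 33 mismatches away (median 22).

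The counterparts that would restore the pattern were traces. For the 86 members with a single T, the sequence with C in its place was seen for 76 of them in the sample where the member was highest, and over all 86 it stood at a median of 0.00902% and at most 0.0389% of the member's reads. The sequence with G was seen for 22 of them, at 0.0158% at most. For the 6 members with A the sequence with G was seen for 6 of 6, at 0.00499% to 0.0228% of the member's reads. In each of these 92 barcodes the off-pattern form was thus the abundant one.

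Off-pattern barcodes were similar in highest share to on-pattern barcodes at the same cut, while their median mean share was lower in each mouse. The median of the highest share was 0.167%, 0.229% and 0.210% in mice 1, 2 and 3, against 0.213%, 0.225% and 0.220% for on-pattern barcodes. The difference, off-pattern minus on-pattern, was -0.0174 ± 0.0259 percentage points (SD, n = 3 mice), smaller than its spread. The median of the mean share over the 8 populations was lower in each mouse, by 0.0161, 0.00345 and 0.0111 percentage points. This difference, -0.0102 ± 0.00639 (SD, n = 3), was larger than its spread. Of the off-pattern barcodes 15.1% ± 3.41 reached 1% in some sample, and of the on-pattern barcodes 15.1% ± 2.91 (SD, n = 3 each). The largest off-pattern barcode peaked at 10.4% and the largest on-pattern one at 20.6%. These are maxima over 100 and 937 barcodes, and a maximum tends to grow with the number, so they do not compare clone size. No test was made on the members' shares, since shares chose them.

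Off-pattern barcodes were found in similar number in each mouse. Mice 1, 2 and 3 held 33, 32 and 35 off-pattern and 376, 260 and 301 on-pattern barcodes, each counted in the mouse with its highest mean share. Over all mice the off-pattern share was 9.64% (Wilson 95% interval 7.99% to 11.6%). By kind of base, the 86 barcodes with a single T peaked at 0.1002% to 10.4% (median 0.197%), the 6 with A at 0.138% to 1.14% (median 0.168%), the 2 with G at 0.232% and 1.499%, the 1 with C at 1.47% and the 5 with 2 wrong-class bases at 0.120% to 5.92% (median 0.161%).

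The number of populations that held an off-pattern barcode of their mouse at 0.01% or more ranged from 2 to 8. Of the 100, 5 were in 2 populations, 34 in 3, 22 in 4, 12 in 5, 7 in 6, 4 in 7 and 16 in all 8. Being in all 8 populations applied to 14.6% of the 1037 barcodes at the cut. The median was 4 populations in each mouse for both kinds. The mean was 4.59 ± 0.331 for off-pattern and 4.80 ± 0.224 for on-pattern barcodes (SD, n = 3 mice), and the difference of -0.213 ± 0.303 was smaller than its spread.

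Like barcodes at the cut in general, most off-pattern barcodes were found in the macrophages of the heart and in renal M2 macrophages. Many had their highest share in these populations, and that share chose them. Their presence there thus follows in part from the choice of members. At 0.01%, 91 of the 100 were in Ccr2hi, Ccr2lo and M2 macrophages together, against 91.6% of all barcodes at the cut. M2 macrophages held 97.1% ± 4.95 of the off-pattern barcodes of their mouse, Ccr2lo macrophages 94.0% ± 2.99 and Ccr2hi macrophages 93.2% ± 6.04 (SD, n = 3 each). B cells held 56.2% ± 14.8, monocytes 36.2% ± 6.63, M1 macrophages 32.1% ± 3.09, neutrophils 25.1% ± 5.15 and T cells 24.9% ± 3.68 (SD, n = 3 each). For on-pattern barcodes the same shares ran from 96.0% ± 2.06 in M2 macrophages to 63.9% ± 1.48 in B cells and 28.2% ± 8.13 in T cells (SD, n = 3 each). The order of the populations was thus similar for both, although in B cells of mouse 1 42.4% of off-pattern and 65.4% of on-pattern barcodes were present, and in B cells of mouse 2 71.9% and 63.8%.

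The population where a barcode was highest followed the same division. Of the 100 off-pattern barcodes 25 were highest in M2, 22 in Ccr2lo and 16 in Ccr2hi macrophages, 16 in B cells, 12 in T cells, 5 in neutrophils, 3 in M1 macrophages and 1 in monocytes. Among the on-pattern barcodes the shares were similar, in the same order 22.4%, 21.7%, 13.6%, 21.9%, 11.3%, 3.63%, 3.31% and 2.24%. The highest share also chose the barcodes of both kinds. In tissue macrophages only, with no blood population at 0.01%, there were 39 of 100, against 33.3% of all barcodes at the cut. The 3 mice differed here, with 17 of 33, 8 of 32 and 14 of 35 off-pattern barcodes, or 38.8% ± 13.3, against 32.6% ± 1.90 of on-pattern ones (SD, n = 3 each). Averaged over populations with 0.01% added, 50 of 100 were over 4-fold higher in tissue macrophages than in blood (background 46.3%) and 8 over 4-fold higher in blood (background 6.85%). None of these counts was tested, because each population of a mouse is 1 sample.

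In blood, lymphoid barcodes outnumbered myeloid ones among the off-pattern barcodes, as among all. Over 4-fold higher in B and T cells than in monocytes and neutrophils were 31 of 100 (background 35.6%), and over 4-fold higher in the myeloid cells were 5 of 100 (background 6.75%). The share of the lymphoid kind was 21.2%, 34.4% and 37.1% of off-pattern barcodes in mice 1, 2 and 3, against 36.2%, 37.7% and 34.6% of on-pattern ones, a difference of -5.23 ± 8.93 percentage points (SD, n = 3). Present in blood lymphoid but not myeloid cells were 23 of 100 (background 23.5%), and the reverse was true of 4 (background 2.41%).

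Off-pattern barcodes reached the cut in 1 mouse each. At 0.1%, 0 of 100 were found in more than 1 mouse, against 24 of the 937 on-pattern barcodes and 2.31% of all barcodes at the cut. In the other mice their highest share was 0.0666%, and 14 of 100 reached 0.01% there. Among on-pattern barcodes 132 of 937 did so (14.1%), and the highest was 0.534%, a maximum over more barcodes. In 9 of 100 members (9%) the level in another mouse was over 5% of the member's own highest share. Among on-pattern barcodes this was so in 88 of 937 (9.39%), a similar share. Reads in all 24 samples were seen for 95 of 100 members and 906 of 937 on-pattern barcodes. The level in another mouse had a median of 0.159% of the own highest share for members and 0.142% for on-pattern barcodes. It was 0.0245% of reads for barcode a of mouse 2 and 0.0122% for barcode a of mouse 1, both above the presence level of 0.01%. Whether such reads add to presence in a barcode's own mouse was not tested.

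The leading off-pattern barcodes differed in size and in lineage profile. By mean share among all barcodes of mouse 1, its barcodes a to e ranked 7, 26, 39, 48 and 50. Those of mouse 2 ranked 1, 12, 31, 36 and 37, and those of mouse 3 ranked 5, 13, 31, 39 and 41. Barcode a of mouse 2 had the highest mean share of all barcodes of that mouse, 8.01% over its 8 populations. It held 10.0% of the reads of monocytes, 10.4% of neutrophils, 5.60% of B cells, 9.51% of T cells, 6.05% of Ccr2hi, 4.31% of Ccr2lo, 10.4% of M1 and 7.79% of M2 macrophages. These levels lay within 2.42-fold of each other, so that no population stood apart.

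Barcode a of mouse 3 had a similar highest share but a lower mean share, 3.52% over its 8 populations. Its share was 9.93% in M1 macrophages, 8.74% in monocytes and 8.002% in neutrophils. In B cells it held 0.0879%, in T cells 0.0588%, in Ccr2hi macrophages 0.340%, in Ccr2lo macrophages 0.214% and in M2 macrophages 0.792%. The 3 high populations were the blood myeloid cells and M1 macrophages, and the highest level was 169-fold the lowest.

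Barcode a of mouse 1, with 2 wrong-class bases, was also highest in M1 macrophages. It held 5.92% there, 4.95% in neutrophils, 4.76% in monocytes, 2.38% in M2, 2.12% in Ccr2hi and 1.78% in Ccr2lo macrophages, 0.518% in T cells and 0.452% in B cells. B and T cells were thus the low populations, and the tissue macrophages other than M1 lay between.

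Barcodes b of mouse 2 and b of mouse 3 were high in myeloid cells and differed in T cells. That of mouse 2 held 3.33% of monocyte, 3.27% of neutrophil, 3.21% of T cell and 2.85% of M1 macrophage reads, 1.43% of B cell reads and 0.962% to 1.13% of the other macrophages. That of mouse 3 held 2.74%, 2.75% and 2.75% of monocytes, neutrophils and M1 macrophages and 1.51% of B cells, but only 0.0699% of T cells. Its levels in the remaining macrophages were 0.379% to 0.671%.

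Several leading off-pattern barcodes had their highest share in T cells. That share enters the mean that ranked them, so the peak follows in part from the ranking. In mouse 1 barcode b held 2.43% of T cell reads against 0.0291% to 0.527% in the other populations, and barcode c held 1.88% against 0.0176% to 0.347%. Barcode d of that mouse held 1.87% of T cell reads against 0.0406% to 0.167%, and barcode e 1.80% against 0.0144% to 0.220%. In mouse 2 barcode c held 2.29% of T cell and 0.754% of B cell reads against 0.0128% to 0.203% elsewhere, and barcode e 1.71% of T cell reads against 0.0156% to 0.525%. All 6 stayed at or above 0.01% in each population of their mouse, with T cells the highest.

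B cells led in a few. Barcode d of mouse 2 held 1.68% of B cell reads against 0.0990% to 0.295% in the other populations. Barcode c of mouse 3, the one with G, held 1.499% of B cell, 1.26% of Ccr2lo, 0.758% of Ccr2hi and 0.310% of M2 macrophage reads, but 0.00919% to 0.0736% in T cells, myeloid cells and M1 macrophages. Barcode f of mouse 2, with 2 wrong-class bases, held 0.724% of B cell, 0.554% of Ccr2lo, 0.489% of M2 and 0.222% of Ccr2hi macrophage reads and at most 0.0667% elsewhere. The last 2 thus joined B cells with the macrophages other than M1.

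Barcodes d and e of mouse 3 had nearly the same levels in each population, which was noticed in the values. The first stood at 0.996% in neutrophils, 0.805% in monocytes, 0.694% in M1 macrophages and 0.0510% to 0.233% elsewhere, and the second at 0.981%, 0.753%, 0.661% and 0.0562% to 0.173%. Their ratio stayed between 0.907 and 1.35 over the 8 populations, although their sequences differ at 23 positions.

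The members' part of all reads differed widely between samples. It was 2.48% to 17.2%, with a median of 8.31%. In mouse 1 it was 5.40% in monocytes, 5.32% in neutrophils, 2.48% in B cells, 10.2% in T cells, 5.85% in Ccr2hi, 5.80% in Ccr2lo, 6.22% in M1 and 6.31% in M2 macrophages, so that T cells stood above and B cells below the others. In mouse 2 the same populations held 14.5%, 14.7%, 12.8%, 17.2%, 11.4%, 10.3%, 13.8% and 13.8%, all above the highest value of mouse 1. In mouse 3 they held 13.5%, 13.02%, 5.54%, 3.43%, 5.94%, 6.39%, 14.3% and 5.17%, with monocytes, neutrophils and M1 macrophages high and T cells lowest.

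A single barcode made much of this. Barcode a of mouse 2 held 42.0% to 75.4% of the members' reads in the 8 samples of that mouse, and barcode a of mouse 3 held 61.5% to 69.4% in its monocytes, neutrophils and M1 macrophages but 1.59% to 15.3% in the other populations. Barcode a of mouse 1 held 88.2%, 93.1% and 95.1% of the members' reads in monocytes, neutrophils and M1 macrophages of that mouse, 18.2% in B cells and 30.7% to 37.8% in the other macrophages. In its T cells barcode a held 5.06% and the 5 leading barcodes together 83.0%. Relative to all reads in barcodes at the cut, members held 10.5% ± 4.41 (SD, n = 24 samples), next to their 9.64% of the barcodes.

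The share of reads in all off-pattern sequences, without the cut, is given as a description, since members made up most of it in each sample. It was 3.58% to 17.8%. By mouse it was 7.79% ± 2.56 in mouse 1, 14.8% ± 1.58 in mouse 2 and 9.94% ± 3.90 in mouse 3 (SD, n = 8 samples of 1 animal each). Eta squared, the between-group part of the sum of squares, was 0.551 by mouse, and 0.140 without the leading off-pattern barcode of each mouse, a setting chosen with the values known. By population the share ranged from 7.91% ± 5.21 in B cells to 12.1% ± 4.51 in M1 macrophages (SD, n = 3 each), with eta squared 0.0988, and 0.534 without the leading barcodes. The 12 tissue macrophage samples exceeded the 12 blood samples by 0.679 percentage points, by 1.57 without the leading barcodes, and lay below them without mouse 1 (-0.212).

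Sequences that reached 0.1% in no sample gave a value that leaves the members' own reads out. The same cut set these rare sequences apart, and they include off-pattern sequences 1 base from a member with at least 10 times their reads. Such sequences held 0.0559% ± 0.0263 of all reads (SD, n = 24 samples). The value is therefore not independent of the members. Among these rare reads the off-pattern part was 16.2% ± 3.86 in B cells, 11.4% ± 0.942 in M2, 10.9% ± 0.439 in Ccr2lo and 10.8% ± 0.509 in Ccr2hi macrophages. It was 48.6% ± 5.29 in neutrophils, 40.5% ± 8.24 in monocytes, 40.3% ± 5.99 in T cells and 39.04% ± 10.1 in M1 macrophages (SD, n = 3 each). The populations differed (eta squared 0.918, permutation p = 3e-05, Benjamini-Hochberg adjusted p = 0.00018 over 6 tests). The mean of the tissue macrophage samples lay below that of the blood samples (-18.4 percentage points, permutation p = 0.00452, adjusted p = 0.00904). That contrast does not describe the split, since M1 macrophages lay close to the high blood populations and B cells nearer the other macrophages. Labels were permuted freely, although the samples of a mouse are paired and not independent. With labels permuted within each mouse, the adjusted p of the contrast was 0.0116 (permutation test). Its call was lost without mouse 3 (-16.3, permutation test, adjusted p = 0.0667), and its sign turned when distinct sequences were counted instead of reads (9.96).

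The direction was the opposite when the same off-pattern reads were taken as a share of all reads, a value given without a test. They then held 3.27% ± 0.843 in M2, 3.03% ± 0.657 in Ccr2lo and 2.74% ± 0.686 in Ccr2hi macrophages, against 0.638% ± 0.0387 in M1 macrophages, 0.971% ± 0.109 in B cells, 0.597% ± 0.0410 in monocytes, 0.594% ± 0.0738 in T cells and 0.559% ± 0.0151 in neutrophils (SD, n = 3 each). The rare sequences of both kinds held 1.05% to 33.5% of all reads, least in neutrophils of mouse 3 and most in Ccr2lo macrophages of mouse 1, and the part of this in the differences was not tested. Off-pattern sequences 1 base from an on-pattern sequence with at least 10 times their reads held 0.460% ± 0.0237 of all reads (SD, n = 24 samples), from 0.411% to 0.511%. With such neighbours merged into the more abundant sequence, the off-pattern share of rare reads was 3.35% to 20.1%, with a median of 8.46%. The call by population was then lost (eta squared 0.125, permutation p = 0.951), and tissue macrophages lay above blood (1.39 percentage points, permutation p = 0.350). The off-pattern share of all reads was 3.10% to 17.3% after merging, against 3.58% to 17.8% before.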

How the data were processed

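Each deposited file lists the distinct 52-base sequences of 1 sample with their read count, a whole number, as deposited. For trimming, filtering and counting by the authors, the sources used here give no tool or setting. Shares are counts over the total of the sample (6808221 to 15745444 reads). Samples were grouped by population and mouse number as in their titles, and the overlap of barcodes (0.410 within and 0.0136 between numbers) shows that the numbers pair the samples. No 2 files of a population overlapped by more than 0.0372.

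Each base was compared with its class at that position. A sequence counted as shifted if each of its runs of wrong-class bases had 3 or more bases. Presence was 0.01% of reads. Folds compared mean shares with 0.01% added. A barcode was assigned to the mouse with its highest mean share. Label permutations numbered 100000, two-sided for differences (Python 3.11.15, numpy 2.4.6, scipy 1.17.1), with the Benjamini-Hochberg threshold at 0.05 over 6 tests, of which the 3 on all off-pattern reads are not used, since members dominate those reads. On simulated data, the classes of deviation were recovered in 100% of 500 sequences, and the population test gave p under 0.05 in 2.5% of 200 data sets without an effect. Those data sets held independent values of equal spread and no difference between mice. They therefore do not show that the test keeps this level for the samples here.

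Named barcodes were, by a rule, the 5 members with the highest mean share per mouse, the 2 largest per type of deviation, and the 2 nearest to the cut on either side. The members and lists were chosen with earlier results of these data known. Barcodes are synthetic and have no genome position, and sites of integration were not analysed here. Of the 100000 permutations the smallest possible p is 1e-05.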

Additional observations from a re-analysis of the deposited data

How the results depend on the processing

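Of 135 alternative values, 114 kept their direction and side of the threshold or stayed within their error. These include a setting that changed no value, where the opposite alternation also counted as on-pattern. They also include settings for the tests on all off-pattern reads, which are not used. The count is therefore no measure of robustness. The number of off-pattern barcodes was 174, 48 and 21 at cuts of 0.05%, 0.2% and 0.5%, and 58 with 0.1% required in 2 samples of a mouse; without 1 mouse each it was 65 to 68. The mean number of populations per member was 3.93, 5.88 and 7.35 at these cuts, 5.39 with 2 samples required, and 5.52 and 2.61 with presence at 0.001% and 0.1%. Merging neighbours ended the call on rare reads by population (0.125) and turned the sign for tissue macrophages minus blood (1.39). Counting distinct sequences instead of reads gave, for all sequences, 0.952 by population and 10.9 for tissue minus blood, both then past the threshold, and 0.0201 by mouse, no longer past it, and turned the sign for rare sequences (9.96). Leaving out each mouse gave 0.108 to 0.758 for the share by mouse, -0.212 to 1.60 for tissue minus blood, and -19.8 to -16.3 for rare reads, where the call was lost without mouse 3 (permutation test, adjusted p = 0.0667). Removing the leading barcode of each mouse gave 0.140 by mouse, 0.534 by population and 1.57 for tissue minus blood. The shares over all sequences consist mostly of members' reads, so nothing is read from their tests. The causes of these changes were not tested. The fit with the replicate block, permuting within a mouse or population, changed no call (0.551 by mouse; for rare reads -18.4, permutation test, adjusted p = 0.0116). A neighbour 100 times as abundant existed for no member, so that setting gave no value.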

Other observations

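Of all 327974 distinct sequences 180703 were off the pattern (55.1%), 158994 of them by 1 base, 20296 by 2 bases and 1413 by 3 or more. Sequences with a shift of the pattern numbered 30, and a further 970 had adjacent wrong-class bases without meeting the rule for a shift.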
